A study of Homo sapiens with 19 samples.

Results

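The amyloid precursor protein (APP) family and the APBB adaptors were followed as 6 genes: APP, APLP1 and APLP2, which encode single-pass membrane proteins, and APBB1, APBB2 and APBB3, which encode the FE65 adaptors that bind their cytoplasmic tails. They were taken by name, with earlier results of these data known. Every annotated intron of these genes was read from the spliced-read tables of all 19 libraries of the series. They are 6 of 22760 genes with reads, they hold 135 annotated junctions with reads, and they contain 29 of the 34588 annotated cassette exons (exons that can be included or skipped), of which 11 had enough reads to be among the 7524 exons tested. RNA of 3 human cell lines was depleted of ribosomal RNA. A375, a melanoma line, gave 1 library each of total RNA and of its nuclear and cytoplasmic fractions, and 1 library each came from the wild type of HEK293, derived from embryonic kidney, and of HUES66, which are human embryonic stem cells. The other 14 libraries were HUES66 cells given 1 ug/ml doxycycline, controls included, for 24, 48 or 96 hr. They were 3 controls labelled WT (1 per time), 3 libraries of RBFOX2 total knockdown (total KD, 1 per time), and 4 each of the RBFOX2 isoform knockdowns called N-short KD and N-long KD (2 at 24 hr, 1 at 48 hr and 1 at 96 hr). RBFOX2 is an RNA-binding protein that regulates alternative splicing, and the title of the series names Cas13d, a guide-directed enzyme that cuts RNA. The labels give neither guide sequences nor the number of clones. Nothing in them says that replicates were separate cultures, so p-values measure the spread between these libraries, which may be technical.

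APP is cut by secretases at the cell surface and in endosomes, which sheds its ectodomain, leaves a membrane stub for gamma-secretase and frees an intracellular tail. FE65 proteins hold that tail through a phosphotyrosine-binding domain and can enter the nucleus with it. APP and APLP2 each carry an alternative exon that encodes a Kunitz-type protease inhibitor (KPI) domain, which neurons largely skip in APP. APP has a further variable exon beside it, homologous to the OX-2 antigen, and a later one next to the membrane that many non-neuronal cells vary. Exons are numbered here along the reference transcripts of GENCODE 29: APP exon 7 is the KPI exon, APP exon 8 the OX-2 exon and APLP2 exon 7 the KPI exon.

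The exons on which the results turn are printed 5′ to 3′ from the GENCODE 29 transcripts (GRCh38), to show how alike the KPI exons of APP and APLP2 are, and how short the other variable exons. Capitals in the KPI exons mark in-frame cysteine codons; in the 3 exons that follow them no base is marked.
APP exon 7, chr21:26000015-26000182, minus strand: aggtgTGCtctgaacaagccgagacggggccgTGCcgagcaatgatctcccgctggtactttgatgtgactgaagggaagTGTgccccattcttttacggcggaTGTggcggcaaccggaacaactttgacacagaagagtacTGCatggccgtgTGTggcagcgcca
APLP2 exon 7, chr11:130123612-130123779, plus strand: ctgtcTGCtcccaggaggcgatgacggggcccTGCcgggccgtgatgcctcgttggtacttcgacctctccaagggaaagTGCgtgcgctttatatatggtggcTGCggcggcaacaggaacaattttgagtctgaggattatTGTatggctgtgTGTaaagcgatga
APP exon 8, chr21:25997360-25997416, minus strand: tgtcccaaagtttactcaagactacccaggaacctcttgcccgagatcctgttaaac
APBB2 exon 8, chr4:40935077-40935139, minus strand: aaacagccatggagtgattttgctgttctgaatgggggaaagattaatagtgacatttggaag
APLP2 exon 14, chr11:130137256-130137291, plus strand: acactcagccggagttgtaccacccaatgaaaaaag
Both KPI exons are 168 nt long. They share 109 of 168 bases (64.9%) without a gap, and all 6 cysteine codons stand at the same positions. All 5 exons are coding and a multiple of 3 long, so skipping any of them keeps the reading frame. The pentamer GCATG, the core of the motif that RBFOX proteins are known to bind, was searched on the transcript strand: it occurs once in APP exon 7, as TGCATG across a cysteine codon, and not within the letters of the other 4 exons. Of 7497 tested exons whose sequence was read, 9.86% hold GCATG. Of the 2018 that are 30 to 80 nt long, 4.36% do, and of the 778 that are 150 to 180 nt long, as APP exon 7 is, 13.5% do. The introns beside these exons were not read here.

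Libraries held 6499183 to 27937149 junction reads, and the 14 doxycycline-treated ones 9622841 to 14625040. RBFOX2 junction reads, in RPM (the usual depth-scaled read count, here junction reads over the library total after edgeR's TMM scaling), were 134, 126 and 128 in the controls of 24, 48 and 96 hr, 50.7, 81.0 and 81.8 in total KD, 114 to 124 in N-short KD and 77.9 to 90.7 in N-long KD. Levels per junction, and the values of the cell lines and A375 fractions, are RPM without TMM scaling unless TMM factors are named. Total KD (log2 fold change -0.82) and N-long KD (-0.57) passed the test, and N-short KD did not (-0.06; edgeR adjusted p = 0.998). A sum over the gene does not tell its transcripts apart, so it checks the label of total KD more directly than those of the isoform knockdowns. All 9 stem cell markers had reads in every doxycycline-treated library, and melanocyte markers summed to 166 RPM in A375 against 53.0 in wild-type HUES66. For HEK293 the markers of kidney epithelium did not stand out: 3 of 5 had reads and they summed to 238 RPM, against 417 in wild-type HUES66 and 3.30 in A375, while the neuronal markers were highest in HEK293 (84.8, against 38.9 in wild-type HUES66 and 29.03 in A375). The 8 neuronal markers summed to 20.7 to 43.1 RPM in the doxycycline-treated libraries and their ranges overlapped between all 4 groups; germ layer markers summed to 0.297 to 2.08. Libraries of the same set (time and, at 24 hr, replicate) varied together, though shared time was not told apart from shared replicate. Differences are given within sets, and a change over sets is their mean ± SD. There was no control in the set of 24 hr replicate 1 and no total KD in that of replicate 2, so total KD meets a control of its own set at 48 and 96 hr only.

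APP was the most abundant of the 6 genes in the doxycycline-treated HUES66 libraries. As a mean over the introns of the reference transcript, which makes genes comparable, its level had a median of 63.9 RPM per junction (range 55.7 to 92.2 over 14 libraries). APLP2 followed at 29.7 (27.6 to 34.2). APBB2 at 3.39 (3.04 to 3.93) and APBB1 at 3.19 (2.25 to 3.57) overlapped in their ranges, as did APBB1 and APLP1 at 1.65 (1.05 to 2.71), while APBB3 was lowest at 0.310 (0.229 to 0.405). APBB3 shares 3 introns with another annotated gene, AC116353.4, and reads on these were left out of its sum. These introns held 126, 107 and 268 reads in all, but count as 0 in its mean over 12 reference introns. Its level per junction is therefore biased low and is not fully comparable with those of the other genes. In bulk RNA, fewer cells of a type and less RNA per cell cannot be told apart.

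APP exon 8 was skipped more often in total KD and in N-long KD, and the 57 nt exon did not pass the test in N-short KD. Inclusion, the percent of inclusion plus skipping reads, was 43.2, 57.9 and 45.2% in the controls of 24, 48 and 96 hr. Total KD had 39.9, 39.4 and 29.2% at the same times, and wild-type HUES66 had 48.8%. The 3 total KD libraries all lay below all 3 controls. N-long KD had 41.9 and 39.9% in the 24 hr replicates, 45.3% at 48 hr and 33.0% at 96 hr. N-short KD had 48.0 and 45.7% in the 24 hr replicates, 54.3% at 48 hr and 44.5% at 96 hr. Each N-long KD library was below the N-short KD library of its set, although the 2 groups overlap across times. These values rest on 641 to 1200 reads per doxycycline-treated library. Within sets, inclusion in total KD was lower than in control by a mean of -17.3 points ± 1.76 (SD, n = 2 sets, lower in 2 of 2), with a log2 odds ratio of -0.89 (SE 0.10; edgeR quasi-likelihood test, adjusted p = 1.52e-08). In N-long KD it was lower by a mean of -9.37 points ± 5.29 (SD, n = 3 sets, lower in 3 of 3; log2 odds ratio -0.59, SE 0.09; edgeR adjusted p = 6.60e-05). N-long KD against N-short KD gave a mean difference of -8.09 points ± 2.73 (SD, n = 4 sets, lower in 4 of 4; log2 odds ratio -0.49; edgeR adjusted p = 3.26e-04). N-short KD differed from control by -0.607 points ± 3.07 (SD, n = 3 sets; log2 odds ratio -0.10, interval -0.28 to 0.07; edgeR adjusted p = 1.00). Total KD lay a further -3.94 points ± 1.96 from N-long KD (SD, n = 3 sets, lower in 3 of 3), which did not pass (edgeR adjusted p = 0.252, and 0.0284 to 0.928 over the alternatives). That last difference passed when total KD at 24 hr was left out (adjusted p = 0.0284) and with limma (0.0416). With time in place of the library set, which ends the use of replicate pairs at 24 hr, edgeR's adjusted p was 0.0620 for N-long KD against control and 0.0749 for the isoform knockdowns against each other. In the authors' deposited table this exon was listed as 2 events per comparison; the inclusion level of control exceeded that of total KD by 0.078 and 0.085 at 24 hr (adjusted p = 1.00 each), by 0.18 and 0.167 at 48 hr (0.0076 and 0.0934) and by 0.172 and 0.12 at 96 hr (0.0412 and 0.848). In the same table its difference from N-long KD was 0.049 to 0.128 and did not pass at any time (adjusted p = 0.356 to 1.00).

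**Figure D1:**
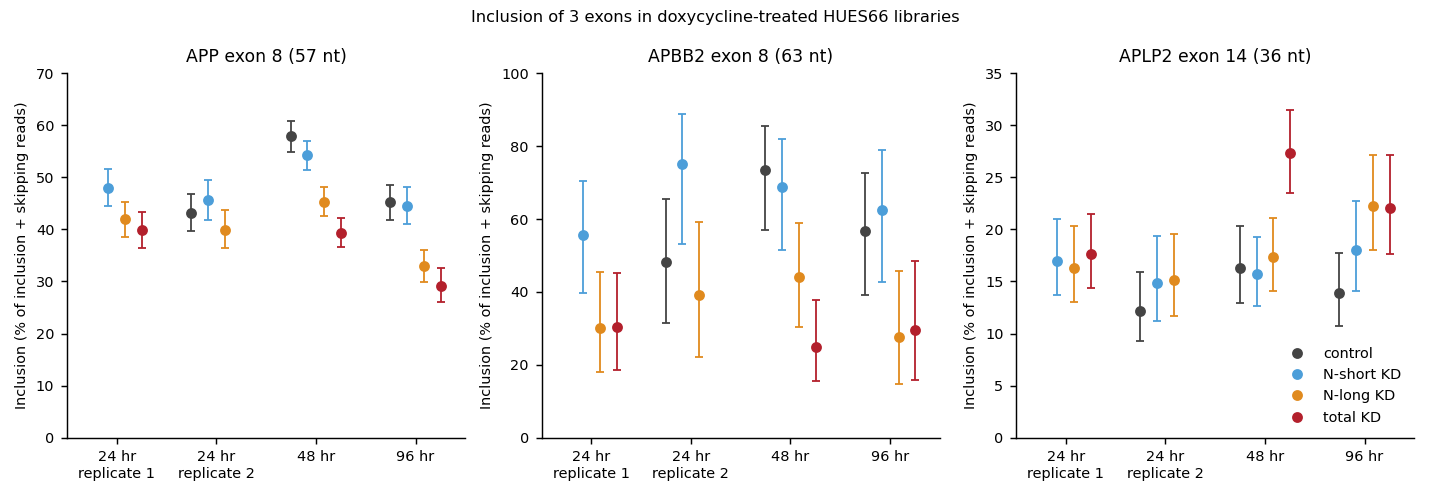
Inclusion (percent of inclusion plus skipping reads, y axis) of APP exon 8, APBB2 exon 8 and APLP2 exon 14 in each doxycycline-treated HUES66 library, by library set (x axis) and knockdown (colour); bars are 95% Wilson intervals and cover counting error only, and the y axes differ in range. At 48 and 96 hr total KD (39.4 and 29.2%) and N-long KD (45.3 and 33.0%) lie below control (57.9 and 45.2%) for APP exon 8, and the same order of control above total KD holds for APBB2 exon 8, whereas total KD is above control for APLP2 exon 14.

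Because exons 7 and 8 are neighbours, the reads that enter APP exon 9 show what was joined to it. They can come from exon 8 (25982478 to 25997359 on chromosome 21), from exon 7 with exon 8 skipped (25982478 to 26000014), or from exon 6 with both skipped (25982478 to 26021839). At 48 hr the control had 615, 357 and 72 reads of these 3 kinds (58.9, 34.2 and 6.90%), and total KD had 512, 583 and 135 (41.6, 47.4 and 10.98%). At 96 hr the control shares were 47.1, 42.4 and 10.5% and those of total KD 30.4, 57.6 and 11.98%. The share from exon 7 was thus higher in total KD in both sets, by 14.2 points ± 1.42 (SD, n = 2 sets). The share from exon 6 was higher by 2.79 points ± 1.83 (SD, n = 2 sets). In N-long KD the share from exon 7 was higher than in control by 6.83 points ± 3.74 (SD, n = 3 sets) and that from exon 6 by 2.60 points ± 0.523 (SD, n = 3 sets), each higher in 3 of 3. In N-short KD the share from exon 7 differed from control by -0.00467 points ± 3.49 (SD, n = 3 sets). These shares are parts of the same reads as the inclusion values and were given no test of their own. The form with exon 8 and without exon 7, read from the junction of exon 6 to exon 8, had 0 to 8 reads per library.

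**Figure D2:**
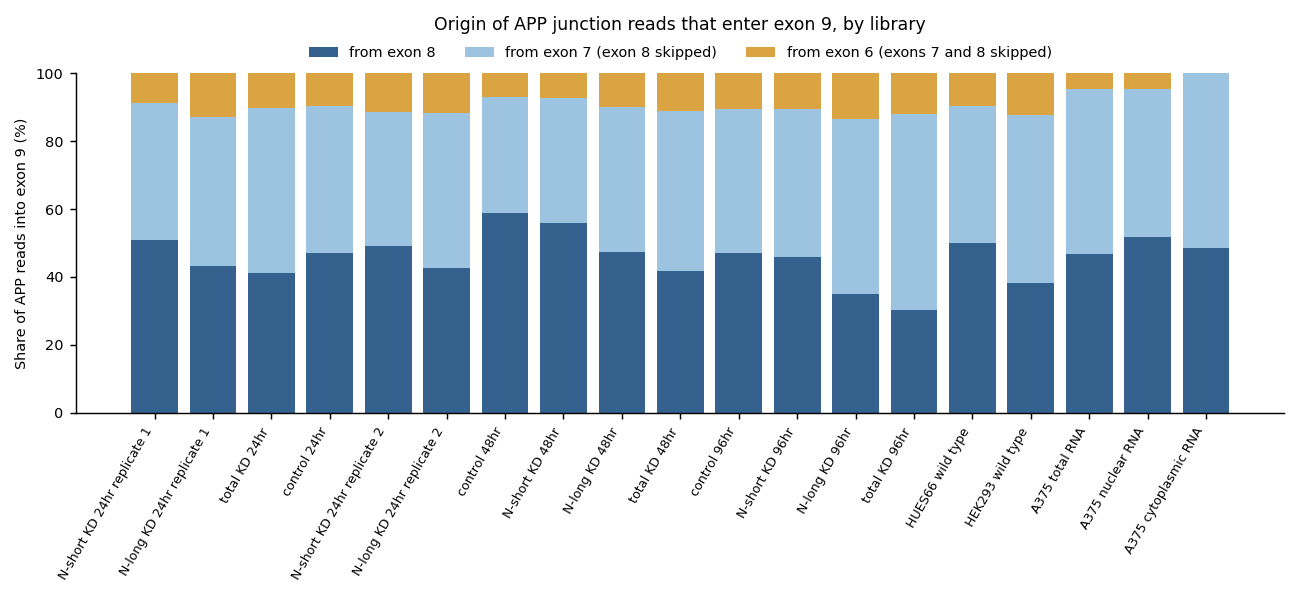
Share (%, y axis) of APP reads into exon 9 that came from exon 8, exon 7 or exon 6 in each of the 19 libraries (x axis), grouped by set and then by line and fraction. The share from exon 8 is largest in control at 48 hr (58.9%) and smallest in total KD at 96 hr (30.4%), and the share from exon 6 is at most 13.4% throughout.

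APP exon 7, the KPI exon, was included at 87.8 to 93.9% in all 14 doxycycline-treated libraries. Controls had 90.7, 93.9 and 90.3% at 24, 48 and 96 hr and total KD 91.1, 90.4 and 89.2%. N-long KD lay between 87.8 and 91.2% and N-short KD between 88.9 and 93.2%, so the groups overlap. No knockdown passed the test. The mean difference from control was -2.28 points ± 1.73 in total KD (SD, n = 2 sets; edgeR adjusted p = 0.334) and -2.08 points ± 0.954 in N-long KD (SD, n = 3 sets, lower in 3 of 3; edgeR adjusted p = 0.217). The log2 odds ratios were -0.37 (interval -0.63 to -0.10) and -0.42 (interval -0.66 to -0.17) before adjustment over all exons.

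APBB2 exon 8, a 63 nt coding exon of the FE65-like adaptor, was included less in total KD. Controls had 14 inclusion and 15 skipping reads at 24 hr (48.3%), 25 and 9 at 48 hr (73.5%) and 17 and 13 at 96 hr (56.7%). Total KD had 13 and 30 (30.2%), 14 and 42 (25%) and 8 and 19 (29.6%), below every control. N-long KD had 30 and 39.1% at 24 hr, 44.2% at 48 hr and 27.6% at 96 hr, also below every control. N-short KD had 55.6 and 75% at 24 hr, 68.8% at 48 hr and 62.5% at 96 hr, and overlapped with control but not with N-long KD. The difference of total KD from control was -37.8 points ± 15.2 (SD, n = 2 sets, lower in 2 of 2; log2 odds ratio -1.95, SE 0.45; edgeR adjusted p = 0.0098). N-long KD lay -22.5 points ± 11.6 from control (SD, n = 3 sets, lower in 3 of 3) and did not pass (log2 odds ratio -1.39; edgeR adjusted p = 0.243), except with wild-type HUES66 as the control of 24 hr replicate 1 (adjusted p = 0.0120, and 0.0120 to 0.971 over the alternatives). N-short KD differed from control by 9.26 points ± 16.0 (SD, n = 3 sets; edgeR adjusted p = 1.00). With 20 to 56 reads per library, single libraries decide these calls. The call in total KD was lost without control at 48 hr (edgeR adjusted p = 0.445), without control at 96 hr (0.0751) and without total KD at 48 hr (0.603). The difference of N-long KD from N-short KD (log2 odds ratio -1.72; edgeR adjusted p = 0.0204) kept its sign in 4 of 4 sets. It was not called with any of 6 libraries left out: N-long KD at 24 hr replicate 1, 48 hr and 96 hr, and N-short KD at 24 hr replicate 2, 48 hr and 96 hr (edgeR adjusted p 0.0639 to 0.161). In the authors' deposited table the inclusion level in control exceeded that in total KD by 0.502 at 48 hr (adjusted p = 6.34e-04), by 0.307 at 24 hr (0.321) and by 0.305 at 96 hr (0.639).

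APLP2 exon 14, a 36 nt exon that encodes part of the ectodomain near the membrane, moved the other way in total KD. Controls included it at 12.2, 16.3 and 13.9% at 24, 48 and 96 hr, and total KD at 17.6, 27.3 and 22.1%. Every total KD library lay above every control. At 24 hr, where total KD has no control of its set, its 17.6% lay near N-short KD of that set (17%) and wild-type HUES66 (17.5%). N-long KD had 16.3 and 15.2% at 24 hr, 17.3% at 48 hr and 22.3% at 96 hr, and N-short KD 17, 14.8, 15.7 and 18.0%, so both overlap with control. Total KD was higher than control by 9.61 points ± 1.99 (SD, n = 2 sets, higher in 2 of 2; log2 odds ratio 0.82, SE 0.17; edgeR adjusted p = 0.0029). The call was lost without control at 96 hr (edgeR adjusted p = 0.0657) and without total KD at 48 hr (0.516, with the log2 odds ratio at 0.52). In N-long KD the difference was 4.15 points ± 3.8 (SD, n = 3 sets; edgeR adjusted p = 0.665). In the authors' deposited table the 3 total KD differences (control minus knockdown) were -0.032, -0.102 and -0.071 at 24, 48 and 96 hr, with adjusted p-values of 1.00, 0.348 and 0.853.

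APLP2 exon 7, the KPI exon, was included far less than that of APP: 24.4 to 36.6% over the same 14 libraries. It was 4.81 points ± 1.19 higher in total KD than in control (SD, n = 2 sets, higher in 2 of 2), which did not pass (log2 odds ratio 0.30; edgeR adjusted p = 0.282). A junction of APLP2 that GENCODE 29 does not list joins exon 12 to exon 15 at annotated sites and skips exons 13 and 14 (130133729 to 130140397 on chromosome 11). It had reads in 19 of 19 libraries, 424 in all, which are not counted among the skipping reads of exon 14. Its share of the reads that use either of its sites was 1.01, 1.24, 1.01 and 0.999% in the control, total KD, N-short KD and N-long KD libraries of 48 hr, and 3.31, 3.65, 2.71 and 3.30% at 96 hr. The 24 hr libraries had 2.38 to 4.91%. All 4 libraries of 48 hr thus lay below the other 10; this feature was chosen after its values were seen and was not tested.

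Among exons, 3 of the 11 tested members passed in total KD against control, where 1.28% of all exons tested passed. Members were chosen with earlier results of these data known, so this share and those that follow stand beside the background without a test. In N-long KD 1 of 11 passed (background 0.452%), in N-short KD 0 of 11 (background 0.0133%; 1 of 11 at an unadjusted p under 0.05, and 0 with limma), in N-long KD against N-short KD 2 of 11 (background 0.346%) and between total KD and N-long KD 0 of 11 (background 0.545%; 4 of 11 at an unadjusted p under 0.05, and 1 with limma). Leaving out 1 library moved the number of all exons called, from 96 to 49 without total KD at 48 hr and to 54 without control at 96 hr in total KD. It moved from 26 to 13 without either isoform knockdown library of 48 hr in N-long KD against N-short KD, and from 41 to 12 without total KD at 48 hr and to 27 without N-long KD at 24 hr replicate 1 in total KD against N-long KD. The median absolute log2 odds ratio of the 11 exons was 0.48 in total KD against 0.43 over all exons tested, and 0.59 in N-long KD against 0.36. The other tested member exons did not pass in any knockdown. APLP1 exon 9 (159 nt) was included at 85.7 to 100.0% and the 24 nt form of its exon 13 at 81.8 to 100.0%, on a mean of 25.6 and 26.8 reads per library. APBB1 exon 2 (735 nt, part coding) was included in all 63 reads of the controls. It had skipping reads in 2 of 3 total KD, 3 of 4 N-short KD and 1 of 4 N-long KD libraries, at most 3 per library (edgeR adjusted p = 0.653 in total KD). The non-coding APBB2 exons of 98 nt (exon 4) and 117 nt ranged over 32.3 to 80% and 0 to 6.67%.

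All 3 FE65 genes hold an annotated exon of only 6 nt, whose letters are shown because they can be compared whole.
APBB1, chr11:6401977-6401982, minus strand: AGAGAG
APBB2, chr4:40842370-40842375, minus strand: AGAGAG
APBB3, chr5:140561844-140561849, minus strand: TGACAG
The APBB1 and APBB2 microexons are identical, and that of APBB3 matches 4 of 6 bases. The APBB1 microexon, known from neurons, had 0 of 467 reads in the 14 doxycycline-treated libraries. By counting error alone this allows an inclusion of up to 0.642%. How well spliced reads across an exon of 6 nt are detected was not tested, so absence is not shown for any of the 3 microexons. That of APBB2 had reads at its 5′ site only (40830578 to 40842369 on chromosome 4): 3 in N-short KD at 48 hr, 2 in N-short KD at 96 hr and 1 in control at 96 hr, beside 658 skipping reads in the 14 libraries. No read entered its 3′ site. That of APBB3 shares its 5′ site with a longer exon, and no read entered its own 3′ site, so it is given no value. APP exon 15 (54 nt, chr21:25905024-25905077, minus strand), the exon near the membrane whose skipping makes the forms first described in leukocytes, had 24 skipping reads beside 11533 inclusion reads in these libraries and was included too often to be tested.

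None of the 6 genes passed in reads per gene in total KD (background 2.2%), N-short KD (0.0%), N-long KD (0.022%) or N-long KD against N-short KD (0.0147%). At an unadjusted p under 0.05 there were 1, 0, 0 and 1 of 6 member genes in these comparisons, and DESeq2 also called 0 in each. Over all genes, the 300 calls in total KD became 162 without control at 96 hr, 181 without total KD at 48 hr and 190 without control at 48 hr. In total KD the absolute log2 fold changes had a median of 0.09 in the members and 0.09 over all genes tested. For APP itself the intervals of the difference from control were -0.08 to 0.04 in total KD, -0.04 to 0.06 in N-short KD and -0.02 to 0.08 in N-long KD on the log2 scale. APBB1, the FE65 adaptor most studied with APP in neurons, came nearest. Controls had 50.1, 42.5 and 42.0 RPM at 24, 48 and 96 hr and total KD 42.4, 35.6 and 31.7, so the groups touch only through the 24 hr library of total KD. Its log2 fold change was -0.26 (SE 0.08; edgeR adjusted p = 0.0582), and it passed with wild-type HUES66 as a control (0.0078), without total KD at 24 hr (0.0125) and without N-short KD at 24 hr replicate 1 (0.0473), with a range of 0.0078 to 0.391 over the alternatives. Between total KD and N-long KD, APBB1 was the 1 member called (background 2.01%): it was lower in 3 of 3 sets, with a log2 fold change of -0.24 (edgeR adjusted p = 0.0499). That call was lost without any one of 11 of the 14 libraries, all but total KD at 24 hr and N-short KD at 24 hr replicate 1 and 96 hr (edgeR adjusted p 0.0547 to 0.361), and with DESeq2 (0.0577). APBB3, with 29 to 64 reads per library, was lower in N-long KD than in N-short KD in 4 of 4 sets (log2 fold change -0.42; edgeR adjusted p = 0.932).

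**Figure D3:**
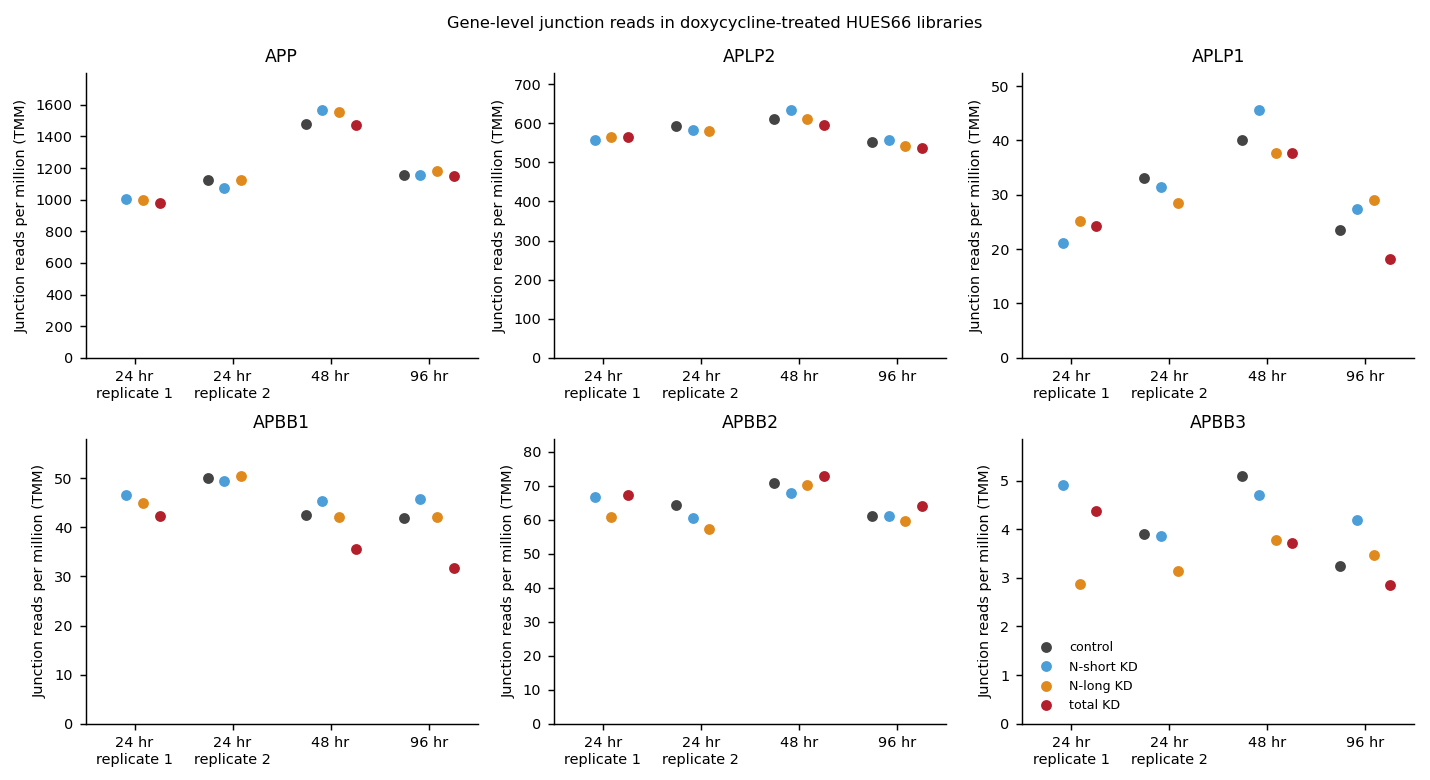
Junction reads in RPM after TMM scaling (y axis, from 0, its range differing by gene) of the 6 genes in each doxycycline-treated HUES66 library, by set (x axis) and knockdown (colour), 1 library per point. APP and APLP1 are higher in all 4 libraries of 48 hr than in those of 96 hr, and the lowest APBB1 values are those of total KD at 96 hr (31.7) and 48 hr (35.6).

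Between 48 and 96 hr, 59.0% of all genes tested passed, 29.7% lower and 29.3% higher at 96 hr. Of the 6 members 4 fell and 0 rose, so the share of members that passed was near that of all genes. Their median absolute log2 fold change was 0.26, against 0.28 over all genes. APP fell from 1481, 1473, 1565 and 1557 RPM at 48 hr (control, total KD, N-short KD, N-long KD) to 1155, 1150, 1156 and 1183 at 96 hr. The ranges of the 2 times do not overlap, and the log2 fold change was -0.39 (SE 0.02; edgeR adjusted p = 4.20e-15, lower in 4 of 4 pairs). APLP1, the family member most restricted to neurons in tissue, fell from 37.7 to 45.5 down to 18.2 to 29.1 (log2 fold change -0.71, SE 0.09; edgeR adjusted p = 1.59e-08). APLP2 fell by 0.16 on the log2 scale (edgeR adjusted p = 2.23e-06) and APBB2 by 0.20 (7.35e-04). APBB1 and APBB3 did not pass (log2 fold changes of -0.04 and -0.32; edgeR adjusted p = 0.637 and 0.108). Each time is 1 library set, so time and set cannot be told apart, and the 24 hr libraries are no step on the way: APP had 980 to 1123 RPM there, below all 48 hr libraries. The 4 calls held in each of the 20 other fits, single libraries left out included.

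Exon choice differed between 48 and 96 hr too, and here as well time and set cannot be told apart. APP exon 8 was included at 57.9, 39.4, 54.3 and 45.3% at 48 hr and at 45.2, 29.2, 44.5 and 33.0% at 96 hr (control, total KD, N-short KD, N-long KD). It was lower at 96 hr in 4 of 4 pairs, by a mean of -11.2 points ± 1.50 (SD, n = 4; log2 odds ratio -0.67; edgeR adjusted p = 2.19e-08). Both KPI exons fell with it. APP exon 7 was lower by -2.73 points ± 1.09 (SD, n = 4, 4 of 4; edgeR adjusted p = 0.0012) and APLP2 exon 7 by -6.67 points ± 0.976 (SD, n = 4, 4 of 4; edgeR adjusted p = 1.09e-04), from 30.9 to 36.6% at 48 hr to 24.5 to 28.5% at 96 hr. The APBB2 69 nt exon (exon 5, part coding, 41033236 to 41033304 on chromosome 4) rose from 73.8 to 79.5% at 48 hr to 92.3 to 96.7% at 96 hr, without overlap, by 18.5 points ± 3.61 (SD, n = 4; log2 odds ratio 2.43; edgeR adjusted p = 7.45e-04). It rests on 26 to 45 reads per library. In all, 4 of 11 member exons passed (1 higher and 3 lower), where 17.8% of all exons tested did (9.61% higher and 8.2% lower). These 4 calls also held in each alternative that could be fitted. The 24 hr control had APP exon 8 at 43.2% and APP exon 7 at 90.7%, nearer to control at 96 hr than at 48 hr. It had APLP2 exon 7 at 27.1% and the APBB2 69 nt exon at 82.6%, between the controls of 48 and 96 hr.

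Of the 45 genes of APP cleavage, tail binding, transport and clearance listed beside the members, all 45 were tested. In total KD 2 rose and 2 fell, 4 of 45 beside the 2.2% of all genes. The list was chosen with earlier results of these data known, and the shares were not compared by a test. LRP1, an endocytic receptor that binds APP and FE65, fell by 0.29 on the log2 scale (edgeR adjusted p = 1.64e-05), and IDE, a protease that degrades the amyloid peptide, fell by 0.20 (0.0032). MME, the protease neprilysin, rose by 0.37 (edgeR adjusted p = 9.27e-04) and APOE, a lipid carrier, by 0.20 (0.0134). The LRP1 call held in all 20 alternative fits. The others were lost when 1 library was left out: MME without control at 48 hr (edgeR adjusted p = 0.0696), IDE without control at 96 hr (0.0662), and APOE without control (0.354) or total KD (0.205) at 96 hr. All 3 were also lost with time in place of the library set (edgeR adjusted p = 0.456, 0.0670 and 0.281). None of the 45 passed in N-short KD or N-long KD (2 and 3 at an unadjusted p under 0.05, edgeR). LRP1 and IDE were also lower, and APOE higher, in total KD than in N-long KD, where 2.01% of all genes passed. There LRP1 (edgeR adjusted p = 0.156) and APOE (0.0659) were lost with the 48 and 96 hr sets only. APOE was also lost without N-long KD at 24 hr replicate 2 (0.0538), N-long KD at 48 hr (0.131) or total KD at 96 hr (0.246). With time in place of the library set, LRP1, IDE and APOE were all lost (edgeR adjusted p = 0.141, 0.0834 and 0.516). From 48 to 96 hr 11 of the 45 rose and 9 fell, a smaller share than the 59.0% of all genes that passed. Both beta-secretases were among those that fell, as were 29.7% of all genes, BACE2 with a log2 fold change of -0.93 (edgeR adjusted p = 3.84e-09), and 0 of the 3 alpha-secretase genes passed; the difference between these groups was not tested. LRP8, a receptor for reelin, fell by 0.65 (edgeR adjusted p = 4.06e-15) and NAE1, which binds the APP tail, rose by 0.37 (5.55e-12).

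The same list held 51 tested cassette exons in 18 genes, of which 3 passed in total KD, all with lower inclusion. These were the 63 nt exon of ENAH (an actin regulator that binds the WW domain of FE65; -29.2 points ± 7.16, SD, n = 2 sets), the 57 nt exon of CLSTN1 (a cargo adaptor that travels with APP; -25.4 points ± 1.74) and the 24 nt exon of PICALM (a clathrin assembly protein; -23.2 points ± 0.127). The ENAH and CLSTN1 exons also passed in N-long KD (-11.3 points ± 2.81 and -21.6 points ± 8.59, SD, n = 3 sets) and in N-long KD against N-short KD. These calls held in all 21 alternative fits. The share in total KD, 3 of 51, stands beside the 1.28% of all exons. Because the list was chosen with earlier results of these data known, this does not measure an enrichment.

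Likeness over the 14 doxycycline-treated libraries was measured as Pearson's r, across libraries that share sets and depth, and is given with no test. Among 8710 genes with enough reads, those most like APP in log2 level were ARRB1 (0.99), GRPR (0.98) and AASS (0.98). For APLP2 they were LOXL2, ABCA3 and CRAT (0.98 each), for APLP1 MFN1, EVL and TTBK2 (0.97 to 0.96), and for APBB1 PKM, HMGN1 and CHD7 (0.92 to 0.91). APBB2 was most like NXN, PIEZO1 and TPM1 (0.91 to 0.89), and APBB3 GSTZ1, MCM9 and GABARAPL2 (0.77 to 0.75). Among 7412 exons, the inclusion of APBB2 exon 8 was most like that of a 27 nt exon of DIAPH1 (0.88), a 168 nt exon of PPP1R12A (0.88), a 49 nt exon of ARHGAP17 (0.88), a 45 nt exon of MYO18A (0.87) and an 84 nt exon of GOLIM4 (0.87). Its r with APP exon 8 was 0.81, with APP exon 7 0.55 and with APLP2 exon 14 -0.59. APP exon 8, added after the values were seen, was most like the PICALM 24 nt exon (0.91).

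Between the cell lines, with 1 library each and intervals that cover counting error only, APP and APLP2 were lowest in A375. APP had 1038 RPM in wild-type HUES66, 609 in HEK293 and 500 in A375, which makes HUES66 2.07-fold (95% exact interval 2.01 to 2.14) above A375 and 1.70-fold (1.65 to 1.75) above HEK293. APLP2 was 576 in HUES66 and 540 in HEK293 (ratio 1.07, 1.03 to 1.10), and lower in A375 at 225. APLP1 was 27.88 in HUES66, 20.9 in A375 and 8.01 in HEK293. The adaptors went their own ways. APBB1 was highest in HEK293 (73.7, against 48.3 in HUES66 and 25.4 in A375), and APBB2 was lowest there (17.9, against 65.2 and 58.9). APBB2 did not differ between HUES66 and A375 beyond counting error (ratio 1.11, 0.998 to 1.23), but with TMM factors the interval left 1 (1.16, 1.04 to 1.29). APBB3 had 3.71 in HUES66, 5.34 in HEK293 and 7.48 in A375, the reverse order of APP, though its intervals for neighbours in that order reach 1 (HUES66 to HEK293 0.695, 0.488 to 1.00; HEK293 to A375 0.714, 0.477 to 1.06). TMM scaling moved the ratios of HUES66 to HEK293 by a factor of 1.13 and left each on its side of 1.

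**Figure D4:**
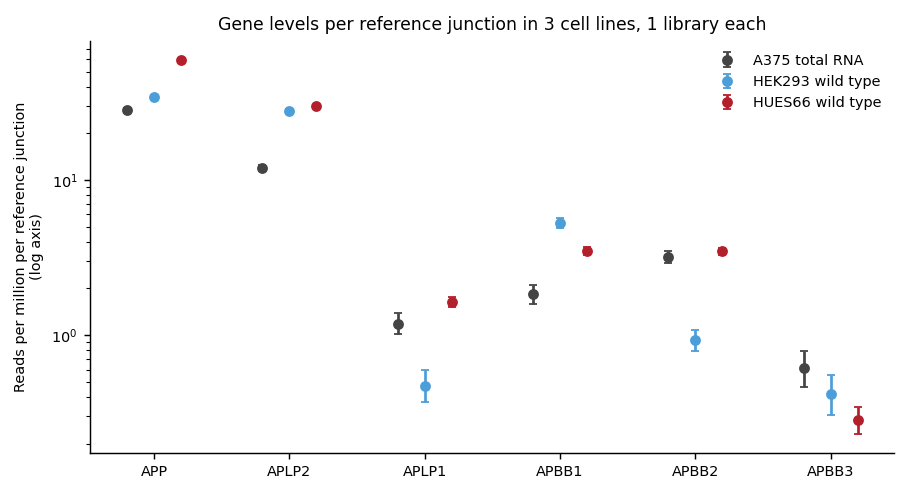
Level per reference junction (RPM, log y axis) of the 6 genes (x axis) in A375 total RNA, HEK293 and wild-type HUES66, 1 library each; bars scale the exact Poisson interval of the gene's reads and cover counting error only. APP is above APLP2 in each line, and HEK293 is highest for APBB1 and lowest for APBB2 and APLP1.

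The variable exons differed between lines as well. APP exon 8 was included at 48.8% in HUES66 (95% Wilson interval 46.4 to 51.2), 46.4% in A375 (40.2 to 52.8) and 35.7% in HEK293 (30.8 to 41.02), so HEK293 lay below HUES66 and its interval overlapped with that of A375. APP exon 7 was included at 96.2% in A375 (93.4 to 97.8), 91.7% in HUES66 (90.4 to 92.8) and 89.2% in HEK293 (85.8 to 91.9). APLP2 exon 7 was highest in A375 (37.4%, 30.4 to 45.1) and close to each other in HEK293 (25.2%) and HUES66 (24.9%). APLP2 exon 14 was lowest in HEK293 (9.56%, 6.61 to 13.6; HUES66 17.5%, 15.1 to 20.1), where the unlisted junction from exon 12 to exon 15 took 12.6% of the reads at its sites, against 5.97% in A375 and 2.47% in HUES66. Reads of that junction also skip exon 14 but are left out of these inclusion values, which count annotated junctions only. APBB2 exon 8 was included in 28 of 29 reads in A375 (96.6%, 82.8 to 99.4) and 41 of 63 in HUES66 (65.1%, 52.8 to 75.7); HEK293 had 11 of 15. APP exon 15 was skipped in 4 of 217 reads in A375, 5 of 298 in HEK293 and 2 of 1451 in HUES66.

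In A375 fractions the APP family and the adaptors parted. The labels describe a low-salt lysis with 0.1% Triton X-100, with the supernatant as cytosolic and the washed pellet as nuclear RNA. APP had 4625 reads (762 RPM) in nuclear RNA and 665 (31.7 RPM) in cytoplasmic RNA, a ratio of 24.0 (95% exact interval 22.1 to 26.1). APLP2 had 366 and 23.1 RPM (ratio 15.9, 14.4 to 17.5), and APLP1 24.9 and 2.91 (ratio 8.55, 6.31 to 11.7). APBB1 was lower in nuclear RNA (18.1 and 34.5 RPM; ratio 0.526, 0.426 to 0.644), and APBB3 was higher (10.7 and 4.44; ratio 2.41, 1.73 to 3.35). APBB2 had 64.9 and 58.9 RPM, a ratio of 1.10 whose interval holds 1 (0.983 to 1.24), but with TMM factors it did not (1.147, 1.02 to 1.29). The median over the 12759 genes with at least 20 reads was 0.929, with quartiles of 0.567 and 1.82, and 99.6% of these genes had a lower ratio than APP. Total RNA lay between the fractions for APP (500) and APLP2 (225).

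The listed pathway genes were sorted, after these values were seen, by whether their protein is known to be membrane-bound or secreted, or soluble. The 23 membrane or secreted ones had a median nuclear to cytoplasmic ratio of 5.08, and 22 of 23 lay above the median of all genes. ADAM10, the main alpha-secretase, was highest at 16.2, followed by LRP1 at 15.4, and APH1A, a gamma-secretase subunit, lowest at 0.704. The 19 soluble ones had a median of 0.884 (range 0.240 to 2.18), and 8 of 19 lay above the median of all genes. With 1 library per fraction there is no replicate. Inclusion in nuclear and cytoplasmic RNA had overlapping 95% Wilson intervals for these 3 exons: APP exon 8 was at 49.3% in nuclear and 51.3% in cytoplasmic RNA (39 reads, 36.2 to 66.1), APBB2 exon 8 at 93.3 and 92.7%, and APLP2 exon 7 at 36.6 and 38.5%. APP exon 7 had 16 of 351 skipping reads in nuclear and 0 of 43 in cytoplasmic RNA, with overlapping 95% Wilson intervals.

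**Figure D5:**
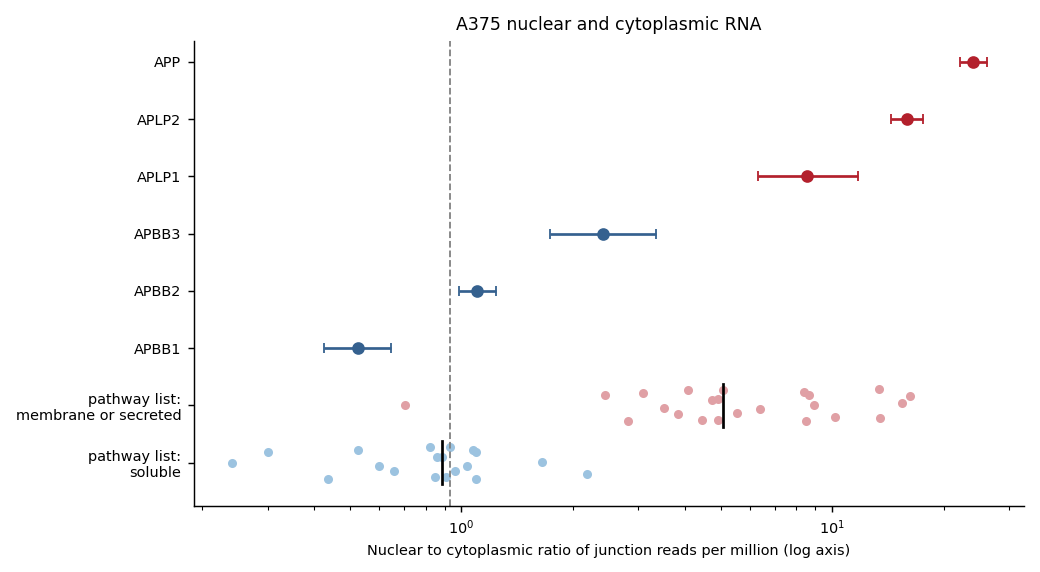
Nuclear to cytoplasmic ratio of RPM in A375 (log x axis) for the 6 genes, with 95% exact intervals of the counts, and for the listed pathway genes, 1 point each, with black bars at their medians; the dashed line is the median of all genes (0.929). APP, APLP2 and APLP1 (24.0, 15.9 and 8.55) lie with or beyond the membrane or secreted genes, APBB1 and APBB2 (0.526 and 1.10) among the soluble ones, and APBB3 (2.41) above the highest soluble one (2.18).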

How the data were processed

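Per the labels, RNA was ribo-depleted and sequenced from 19 libraries. The authors deposited raw counts of reads per splice junction, not normalized; the submitters' processing notes name STAR 2.7.1 and SAMtools 1.9 and build hg38. Their rMATS tables give, per the file headers, an inclusion difference (other: a scale of -1 to 1, control minus knockdown), deposited with p-values; 69 per-library columns of these were not used here. Annotated junctions (GENCODE 29) were summed per gene where they belong to 1 gene. Inclusion reads are the rounded mean of annotated reads into the 3′ site and out of the 5′ site of an exon of up to 1000 nt, and skipping reads the annotated junctions spanning it that share a site with those. The exons tested averaged 20 or more reads over the doxycycline-treated libraries, with pooled inclusion of 2 to 98%.

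The 14 doxycycline-treated libraries were fitted on library set and knockdown by the quasi-likelihood F-test of edgeR (version 4.0.16, TMM scaling, filterByExpr; R version 4.3.3); for exons, inclusion and skipping reads were paired columns. P-values were adjusted (Benjamini-Hochberg) over 13628 genes or 7524 exons, threshold 0.05. Intervals of log2 values are normal 95% intervals from the SE. Residuals of same-set libraries correlated at a median of 0.775 (18 pairs), others at -0.28 (55 pairs). Libraries of a set also share a time, which most other pairs do not. These values therefore cannot tell shared replicate from shared time, and the pairing of replicates was not tested apart from time. Pairing by set comes from replicate numbers and library series in the labels. Tests were checked on simulated data that held no differences between library sets, so this check does not cover the pairing by set. Alternatives used DESeq2 1.42.0, limma 3.58.1 (pseudocount 0.5), other scaling, filters, sets and left-out libraries. Single libraries carry 95% Wilson, Poisson or exact ratio intervals, which cover counting error only; a count of 0 allows 3 counts. Python 3.11.15 with scipy 1.17.1 was used.

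Named are all 6 genes and all tested member exons, listed pathway genes that passed (at most 8 per contrast by p), and for likeness the 3 genes (mean of at least 100 reads) or 5 exons (at least 10 reads in each library) of highest r. From 48 to 96 hr, only the listed genes of smallest p, LRP8, NAE1 and BACE2, are given with their fold changes. Members and lists were chosen with earlier results of these data known; the sorting of listed genes by protein location was added after the data were seen. Sequences are from GENCODE 29.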

Additional observations from a re-analysis of the deposited data

Results flagged for a closer look

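An APP junction outside the annotation had reads in 5 knockdown libraries and none in the 3 controls. It runs from 25975220 to 25975953 on chromosome 21 (734 nt, minus strand), from the annotated 5′ site of exon 10 to a point 9 nt inside exon 11. It had 6 reads in total KD at 24 hr, 8 in N-short KD at 24 hr replicate 1, 35 in N-short KD at 48 hr, 42 in N-long KD at 48 hr and 26 in N-long KD at 96 hr, and 0 in the other 14 libraries. The annotated junction from the same 5′ site had 1272, 1171 and 811 reads in the last 3 of these libraries, which makes the share of the junction outside the annotation 2.68, 3.46 and 3.11% of the reads. Total KD at 48 and 96 hr had 0 beside 1182 and 669, so presence did not follow a knockdown or a time. Whether both sites carry splice signals was not tested.

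Of 34 sets of 4 values (genes and exons in N-short KD or N-long KD, which mix times), 1 had a value apart from the others, and chance gives about 1 in 20. APBB1 exon 2 was included at 95.5% in N-long KD at 96 hr against 100.0% in the other 3, a difference of 1 skipping read.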

How the results depend on the processing

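No difference that passed, in a member or a named listed gene or exon, changed sign in the alternatives it was refitted in. Of the differences given that did not pass, the log2 fold change of APP in N-short KD became -0.016 without the replicate block and -0.011 with the wild-type library as a control, and with single libraries left out it ran from -0.013 to 0.034, that of APBB1 from 48 to 96 hr from -0.074 to 0.019, and the log2 odds ratio of APBB2 exon 8 in N-short KD from -0.10 to 0.77. The APP exon 8 calls in total KD and from 48 to 96 hr, and the other member calls from 48 to 96 hr, held in every alternative that could be fitted; the APBB2 69 nt exon could not be fitted at 50 or more reads. With the wild-type library as the control of 24 hr replicate 1, 1 gene (APBB1) was called in total KD and 2 exons in N-long KD. APBB1 in total KD against N-long KD was called 0 times with DESeq2 and 0 times with the 48 and 96 hr sets only. For N-long KD against N-short KD, 1 exon was called with the 48 and 96 hr sets only and 1 with at least 50 reads, both times APP exon 8; limma called 1 exon (APP exon 8) in total KD against N-long KD. Without the replicate block, with time alone, 0 genes were called in total KD against N-long KD, 0 exons in N-long KD and 1 exon (APBB2 exon 8) in N-long KD against N-short KD; the paired fit by set is the main one and no other member call changed. Single libraries left out gave 0 to 1 genes in total KD, 0 to 1 genes in total KD against N-long KD, 1 to 3 exons in total KD, 1 to 2 exons in N-long KD against N-short KD and 0 to 1 exons in total KD against N-long KD. The APP ratio of HUES66 to A375 became 2.17 and that to HEK293 1.92 with TMM factors. With 3 junctions alone, APP exon 8 inclusion was 54.04% in HUES66 and 41.03% in HEK293. Over all features, calls also fell without the replicate block: genes from 300 to 62 in total KD and from 274 to 40 in total KD against N-long KD. N-long KD went from 3 to 0 genes and 34 to 22 exons, N-long KD against N-short KD from 2 to 0 genes and 26 to 16 exons, and total KD against N-long KD from 41 to 22 exons. With the wild type as a control, 536 genes were called in total KD in place of 300. With the 48 and 96 hr sets only, 133 genes and 14 exons were called in total KD against N-long KD in place of 274 and 41, and 22 exons in N-long KD in place of 34. Without a low-count filter 16 genes were called in N-long KD in place of 3 and 17 in N-long KD against N-short KD in place of 2; DESeq2 called 1 in N-long KD. In N-short KD, edgeR called 0 genes and the alternatives 0 to 4, and 1 exon and 0 to 6. Depth limits the tested exons of APBB1, APLP1 and APBB2, with a mean of 21.8 to 50.9 reads per library (378 to 1033 in APP and APLP2), and APBB3, with 29 to 64 reads.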

Other observations

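From 48 to 96 hr, 7 of the 51 tested exons of the listed pathway genes rose in inclusion and 4 fell, 11 of 51 where 17.8% of all exons passed, so the share is near that of all exons. Of these calls 3 held in every alternative that could be fitted, those named here, and the other 8 were lost in 4 to 14 of them. The highest difference was that of a 129 nt exon of BIN1, a membrane-curving protein of endocytosis, at 26.9 points ± 8.34 (SD, n = 4 pairs; edgeR adjusted p = 2.48e-04). The PICALM 24 nt exon fell by -12.7 points ± 3.77 (SD, n = 4; edgeR adjusted p = 0.0014) and the ENAH 63 nt exon by -7.70 points ± 4.29 (SD, n = 4; edgeR adjusted p = 9.06e-04).

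A second APP junction outside the annotation, 26022038 to 26050994 on chromosome 21, had 292 reads in 18 of 19 libraries. Both of its ends lie 5 nt from the annotated junction of exons 5 and 6.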
